A study of Homo sapiens with 4 samples.

Results

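Gene expression of a Jurkat line that carries a hairpin RNA targeting IKKε (the shIKKE line) was compared with that of a Jurkat control line, both treated with solvent, with 1 array on each side, out of 4 arrays in the series. Jurkat is an established human T cell leukaemia line derived from a T cell at an immature stage, and IKKε is a kinase encoded by IKBKE. The other pair of arrays came from the same lines after 3 h with PMA (10 ng/ml) plus ionomycin (0.5 uM). PMA and ionomycin act on protein kinase C and on calcium entry. The time given for the solvent arrays is also 3 h. The titles call the control construct a vector and the design text calls it a control shRNA, and the labels do not say whether either line is 1 clone or how many hairpins were used. All probe sets that the platform annotation gives a single gene symbol were taken, 41091 of 54675 on the array. Of these, 26218 probe sets of 13717 genes reached a signal of 56.4, the median of all signals, on at least 1 of the 4 arrays, and 6058 genes did not. A probe set is a group of probes that read the same transcript, and a gene stands in the counts by its brightest probe set, judged by mean level. Differences are log2(signal + 14.1), shIKKE minus control, so that 1 is a 2-fold difference of that quantity and dim genes are understated. With 1 array on each side there is no replicate, no error between samples and no p-value, and the scatter between probe sets of the same gene, together with the signal level, stands in as a measure of reading error.

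IKKε and its relative TBK1 phosphorylate transcription factors of the interferon response and regulators of NF-κB, and IKKε is present in T cells. Resting T cells hold growth-factor and antigen-receptor responsive genes, the immediate early genes, at low levels, and signals through protein kinase C, calcium and MAP kinases switch them on within minutes. Other programmes that set the state of a cultured T cell leukaemia line are ribosome production, sterol and lipid synthesis, the oxygen response and the stage of thymic development at which the cell was arrested.

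Between the solvent arrays, 596 genes had at least 2-fold higher signals in the shIKKE line (4.34% of genes past the filter) and 916 had at least 2-fold lower signals (6.68%). The median difference was -0.05, the middle 90% of genes lay between -1.14 and 0.94, and 46.3% of genes had a difference above 0. Most differences past 2-fold were moderate, since 544 of the higher and 815 of the lower genes lay below 4-fold, which is 2 on the log2 scale, and 2 higher and 7 lower genes lay past 3 on that scale. The share past 2-fold depended on brightness. In the dimmest 20% of genes, with a median signal of 42.2, 28.5% were past 2-fold, and in the brightest 20%, with a median of 4941, 2.30% were. Among the latter 34 genes were higher and 29 lower, while in the middle 20% by level 58 were higher and 161 lower. Among genes whose solvent arrays averaged at least 225.7, 166 were higher and 338 lower. With the larger pseudocount of 56.4 the counts over all genes were 215 and 421, and with no filter 1235 and 1458.

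Probe sets of the same gene showed how far single readings can be trusted. For the 6798 genes with at least 2 probe sets, the 2 brightest differed in their line difference by a median of 0.32. In the 25% of genes with the dimmest second probe set the gap was 0.61, and when the first probe set passed 2-fold the second did so in the same direction for 43 of 223 genes and in the opposite direction for 18. In the 25% with the brightest the gap was 0.19, and the second probe set had the same sign for 43 of 43 genes and was itself past 2-fold for 24. Over genes, which are not independent replicates, the readings of the 2 probe sets had a Pearson correlation of 0.16 in the dimmest and 0.71 in the brightest of these groups. These points share the same 2 arrays, so they describe reading error and not the spread between cultures.

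**Figure D1:**
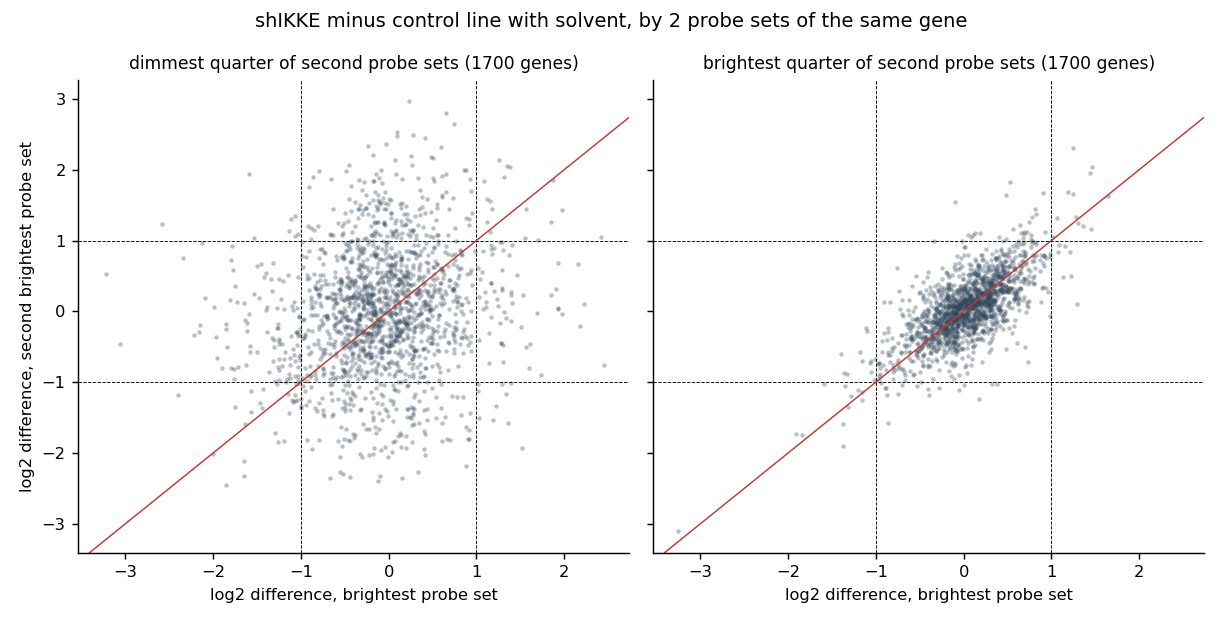
Log2 difference with solvent (shIKKE minus control line) by the second brightest probe set against the brightest of the same gene, 1 point a gene, for the 25% of genes with the dimmest (left) and the 25% with the brightest (right) second probe set; dashed lines mark 2-fold and the red line equality. The points scatter widely on the left, with a median gap of 0.61, and follow the line on the right, with a median gap of 0.19.

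The ACTB ratio given below differed, but measures of array-wide signal were close between the solvent arrays. Their median signals were 48.8 and 49.7, 21835 and 21817 named probe sets reached the threshold, the 2% trimmed mean was about 499.9 on all 4 arrays, and 9 bacterial hybridisation control probe sets differed by -0.33 to 0.09. The ratio of 5′ to 3′ signal of ACTB, a sign of RNA integrity, was 0.244 in control and 0.339 in shIKKE cells with solvent, and that of GAPDH 1.06 and 1.04. Genes whose signal on a single array was at least 2-fold above that on each of the other 3 numbered 185 for control and 44 for shIKKE cells with solvent. Genes that were likewise alone below the other 3 numbered 229 and 269. Whether the control line's solvent culture, the shIKKE line's or both account for a difference cannot be told apart with these 2 arrays.

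The targeted gene was read by a pair of probe sets that differed in direction. The first read 339.9 in control cells and 180.2 in shIKKE cells with solvent (log2 -0.87), and the second 218 and 287 (log2 0.38). Their gap exceeds the median gap of 0.37 for genes of that brightness, so lower IKBKE transcript in the shIKKE line rests on 1 probe set. TBK1 read 1664 and 2216 (log2 0.41). Of 18 measured IKK-related kinases and adaptors, OPTN, which encodes the ubiquitin-binding adaptor optineurin (log2 -1.27), and CYLD, which encodes a deubiquitinase that restrains NF-κB (log2 -1.23, with 6 probe sets from -1.23 to -0.12), were at least 2-fold lower and none was higher. The list's median was -0.16, and 11.1% of it was lower against 6.68% of all genes.

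Promoter windows are shown for 5 genes that stand for groups described below, because members of those groups had differences in the same direction. Each runs from 250 bases before to 50 bases after a RefSeq start site on GRCh38.p14, 5′ to 3′ on the strand of the gene. Capitals mark matches to the motif named with each window, on either strand. EGR1 (immediate early group, lower) is at chr5:138465229-138465528 on the plus strand, with CArG boxes in capitals, the element bound by serum response factor. BNIP3 (oxygen-responsive group, lower) is at chr10:131981874-131982173 on the minus strand, with ACGTG, the core of the hypoxia response element, in capitals. UTP20 (ribosome production, higher) is at chr12:101279855-101280154 on the plus strand, with CACGTG, the E-box bound by MYC and MAX among others, in capitals. HMGCS1 (sterol synthesis, higher) is at chr5:43313363-43313662 on the minus strand and is 1 of 2 RefSeq windows of that gene. HSPA5 (endoplasmic reticulum chaperones, higher) is at chr9:125241294-125241593 on the minus strand. In the last pair CCAAT, the box bound by NF-Y, is in capitals, as ATTGG where it lies on the opposite strand.
EGR1: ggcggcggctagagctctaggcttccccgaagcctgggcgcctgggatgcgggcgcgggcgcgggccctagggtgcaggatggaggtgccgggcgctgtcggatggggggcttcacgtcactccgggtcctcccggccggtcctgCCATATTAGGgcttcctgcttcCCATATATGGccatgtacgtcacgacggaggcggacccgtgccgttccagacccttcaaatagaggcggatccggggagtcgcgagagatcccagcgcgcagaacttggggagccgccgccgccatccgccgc
BNIP3: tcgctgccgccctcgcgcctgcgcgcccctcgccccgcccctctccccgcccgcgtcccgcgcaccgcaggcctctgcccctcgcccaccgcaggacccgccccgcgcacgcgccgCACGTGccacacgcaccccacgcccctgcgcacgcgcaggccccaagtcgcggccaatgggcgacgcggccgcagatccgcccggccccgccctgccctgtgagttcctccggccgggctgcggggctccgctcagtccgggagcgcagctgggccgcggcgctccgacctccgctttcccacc
UTP20: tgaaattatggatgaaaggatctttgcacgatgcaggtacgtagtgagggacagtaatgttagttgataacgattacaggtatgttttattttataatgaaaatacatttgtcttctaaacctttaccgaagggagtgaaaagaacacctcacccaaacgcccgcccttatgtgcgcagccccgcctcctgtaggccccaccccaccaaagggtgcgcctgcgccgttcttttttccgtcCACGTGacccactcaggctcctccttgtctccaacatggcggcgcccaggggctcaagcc
HMGCS1: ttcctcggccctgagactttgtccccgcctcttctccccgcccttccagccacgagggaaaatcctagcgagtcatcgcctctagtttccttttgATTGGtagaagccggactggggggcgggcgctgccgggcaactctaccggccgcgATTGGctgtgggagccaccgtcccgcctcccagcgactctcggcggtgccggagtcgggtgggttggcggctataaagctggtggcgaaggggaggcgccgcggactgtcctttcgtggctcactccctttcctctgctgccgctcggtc
HSPA5: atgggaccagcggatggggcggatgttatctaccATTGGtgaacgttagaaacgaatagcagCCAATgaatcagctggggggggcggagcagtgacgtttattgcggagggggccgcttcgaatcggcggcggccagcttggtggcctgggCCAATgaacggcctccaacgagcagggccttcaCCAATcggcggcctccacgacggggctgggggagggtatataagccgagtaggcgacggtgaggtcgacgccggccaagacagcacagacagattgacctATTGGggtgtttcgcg

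The EGR1 window holds CArG boxes from -105 to -96 and from -83 to -74, and the UTP20 window holds its E-box from -10 to -5. Over all 35116 RefSeq windows, the CArG box was found in 1.29%, the CCAAT box in 34.6%, the E-box in 7.26% and the hypoxia core, which also lies within the E-box, in 21.4%. Over the 15851 windows of genes past the filter, these shares were 1.19%, 34.5%, 9.16% and 24.5% in that order. Among the windows of ribosome biogenesis genes 11 of 30 (36.7%) held the E-box, and among those of oxygen-responsive genes 13 of 23 (56.5%) held the hypoxia core. The hypoxia core was as frequent in ribosome biogenesis windows, at 17 of 30 (56.7%), and was found in 10 of 26 windows (38.5%) of immediate early and of endoplasmic reticulum chaperone genes alike. The E-box was in 5 of 23 sterol windows (21.7%) and 5 of 26 immediate early windows (19.2%). The CCAAT box was found in 18 of 23 windows (78.3%) of sterol genes and 23 of 26 (88.5%) of endoplasmic reticulum chaperone genes. The sterol regulatory element, searched as tcacnccac with any base at n, was in 1 of 23 sterol windows (4.35%) and in 1.13% of all windows. The endoplasmic reticulum stress element, a CCAAT box followed after 9 bases of any kind by CCACG, was in 9 of 26 chaperone windows (34.6%) against 0.0769% of all windows, and in HSPA5 it runs from -66 to -48. Of the immediate early windows 2 of 26 (7.69%) held a CArG box. The 619 windows of the 448 higher genes that matched held the E-box in 12.3% and the CCAAT box in 31.0%, and the 1038 windows of 698 lower genes held the hypoxia core in 18.2% and a CArG box in 1.64%. A match describes letters in these windows, and no occupancy was measured.

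Immediate early transcription factor genes had the largest differences. Of 28 measured members of the list, 18 were lower by 2-fold or more in shIKKE cells with solvent and 1 was higher, with a median of -1.61, against 6.68% lower over all genes. FOSB, an AP-1 subunit, read 1364 in control cells and 7.38 in shIKKE cells (log2 -6.00), the largest difference among the 13717 genes. EGR3, a zinc finger factor induced by antigen receptor signalling, read 4526 and 104 (log2 -5.26). FOSB and EGR3 have 1 probe set past the filter each, so neither has a second reading. With stimulation FOSB read 272 in control and 302 in shIKKE cells, and EGR3 4009 and 9316. For FOSB the control line with solvent was thus the highest array and the shIKKE line with solvent the lowest. For EGR3 the shIKKE line with solvent was the low array.

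EGR1, the founding member of the EGR family, had 3 probe sets that gave -3.25 to -3.10. Its representative read 9953 in control cells and 1035 in shIKKE cells with solvent, and 23198 and 18503 with PMA and ionomycin, so the shIKKE line with solvent stood low and the other 3 arrays high. EGR4 read 1129 and 27.5 (log2 -4.78), with a second probe set at -2.29 and another, dim one at 1.24. JUN, the central AP-1 subunit, read 5059 and 1404 (log2 -1.84), and its 4 probe sets lay between -1.84 and -1.34. With stimulation JUN read 2721 in control and 5615 in shIKKE cells, so the control line read higher with solvent for JUN. FOS, its usual partner, read 288 and 45.8 (log2 -2.34) by a single probe set.

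The orphan nuclear receptor genes NR4A1 and NR4A3 were lower too. NR4A1 read 747 and 109 (log2 -2.63, with 3 probe sets from -2.63 to -1.23), and NR4A3 read 151 and 5.82 (log2 -3.06, to -0.44 by another probe set). NR4A2, at 0.591 and 18.8 (log2 1.16), was the 1 member higher, at signals below the threshold on both solvent arrays. KLF10, a factor first found as an early TGF-beta target, read 6901 and 1044 (log2 -2.71), and the early response gene IER3 read 2726 and 459.6 (log2 -2.53).

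Some members of the family lay within 2-fold. MYC, the growth-regulating factor, read 7663 and 12539 (log2 0.71), JUND read 6912 and 3913 (log2 -0.82) and KLF6 1704 and 1562 (log2 -0.12). FOSL1 (0.22) and FOSL2 (-0.49, with 4 probe sets from -1.21 to 0.96), the remaining FOS relatives, were also within 2-fold. EGR2 is not analysed here.

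**Figure D2:**
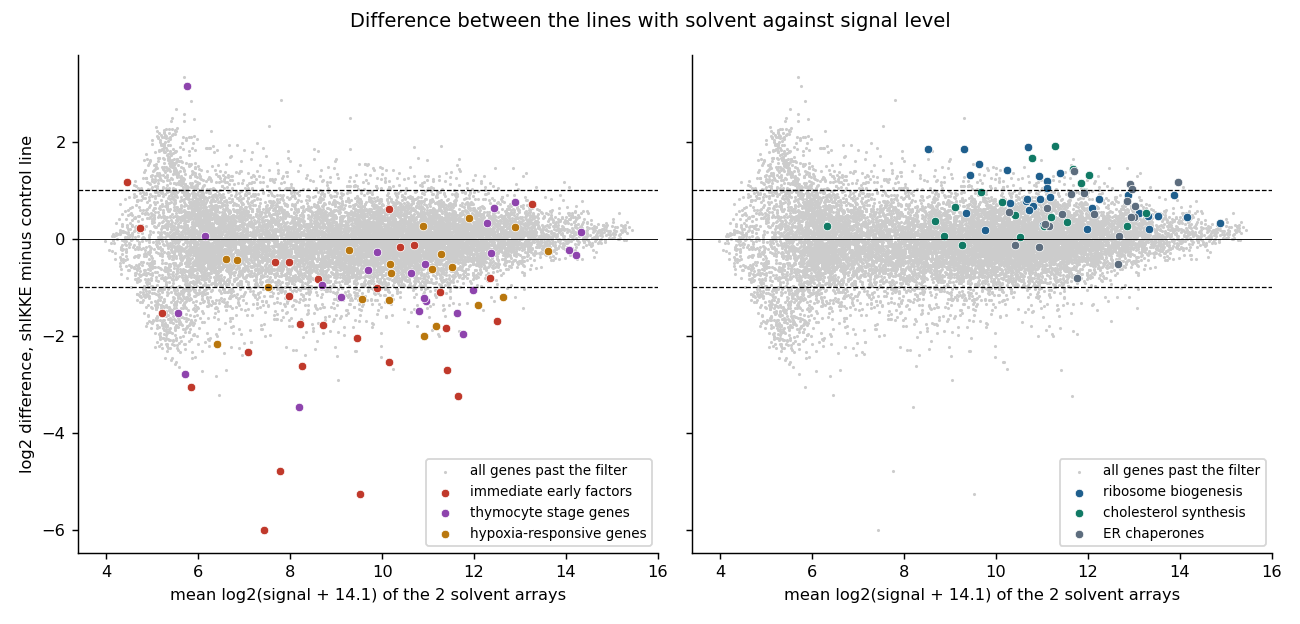
Log2 difference with solvent, shIKKE minus control line, against the mean log2(signal + 14.1) of the 2 solvent arrays; each grey point is 1 of 13717 genes, coloured points are members of 6 gene lists and dashed lines mark 2-fold. Immediate early factors reach -6.00 on the left, while all 31 ribosome biogenesis genes on the right lie above 0.

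Negative regulators of MAP kinase signalling, most of which are themselves induced by it, were listed together with RGS16 and the mRNA decay factor genes ZFP36L1 and ZFP36L2. Of 21 measured members of this list, 6 were at least 2-fold lower (28.6% against 6.68% of all genes). In the other direction 1 was higher (4.76% against 4.34%), and the median was -0.28. The phosphatase gene DUSP5 read 1187 and 212 (log2 -2.41) and DUSP2, another nuclear MAP kinase phosphatase, read 4147 and 1108 (log2 -1.89). DUSP10, which acts on JNK and p38, gave -2.36 and -1.70 by its probe sets, and the Sprouty gene SPRY4 read 189 and 44.1 (log2 -1.80). DUSP6, counted among the lower genes, read 240 and 80.4 (log2 -1.43), but its 3 probe sets reached -0.11 and had a median of -0.25. RGS16, listed as higher at 1.61, read 3.56 and 39.9 and had a second probe set at -0.46. Beyond these, CD69, the early activation antigen, read 1425 and 428 (log2 -1.70).

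Targets of NF-κB as a list lay near the array's centre, with a median of -0.12. Of 22, 3 were lower (13.6% against 6.68% of all genes) and 1 higher (4.55% against 4.34%). TNFAIP3, which encodes the inhibitor A20, read 2675 and 929.7 and its probe sets gave -1.84 and -1.51. REL, the NF-κB subunit gene, read 1478 and 653 (log2 -1.16, with 5 probe sets from -1.36 to -0.05). LTA was at -1.22, from 57.7 in control and 16.7 in shIKKE cells, the latter below the threshold of 56.4. CXCL8, the member counted as higher, was at 1.74 from 1.83 and 39.0, below the threshold on both solvent arrays. Its second probe set gave -0.89. BIRC2 (-0.06), CD83 (-0.76) and TNFAIP8 (-0.18) were within 2-fold.

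Genes of the immature thymocyte made up the next group with lower signals. Of 24 measured thymocyte stage and recombinase genes, 10 were lower by 2-fold or more in shIKKE cells, against 6.68% of all genes, 1 was higher, and the median was -0.68. Without probe sets that may read several transcripts, 13 members were measured and 5 were lower. CD1E, one of the lipid-presenting CD1 molecules of cortical thymocytes, read 6870 and 1742, with its probe sets at -1.97 and -1.79. CD1A (-1.29), CD1B (-1.50) and CD1C (-1.23), named after their values were seen, were lower as well, and since CD1 genes are similar in sequence their probe sets may share transcripts. DNTT, the terminal transferase that adds bases during receptor gene joining, read 5367 and 1860, and its 3 probe sets lay between -2.37 and -1.46.

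CR2, which encodes a complement receptor found on B cells and some immature T cells, read 962 in control cells and 74.0 in shIKKE cells with solvent (log2 -3.47). It read 391 and 45.4 with stimulation (log2 -2.77). Both control arrays thus lay above both shIKKE arrays. CD38, an ectoenzyme of thymocytes, read 125 and 5.97 (log2 -2.79), and the thymic homing receptor gene CCR9 read 65.3 and 13.5 (log2 -1.52). MAF, a factor of helper T cells, was the member with higher signal, at 4.17 and 148 (log2 3.15), from a control reading far below the threshold. RAG1 (-0.65) and RAG2 (-0.95), the recombinase genes, were within 2-fold and are named after their values were seen. SOX4 (0.14), LEF1 (-0.34) and CD99 (-0.24), factors and a surface protein of thymocytes with bright probe sets, were also within 2-fold.

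Notch signalling is active in early thymocytes. Of 22 measured receptors, ligands, factors and targets of this pathway, 4 were lower, against 6.68% of all genes, and none was higher, with a median of -0.26. HES1 read 672 and 244 (probe sets at -1.41 and -1.29), HES4 read 7996 and 3488 (log2 -1.19), and PTCRA, which encodes the pre-T cell receptor alpha chain, read 817 and 349 (3 probe sets from -1.51 to -0.91). The ligand gene JAG2 was at -1.09. The DNA-binding factor gene RBPJ was at -0.40 and the receptor gene NOTCH2 at 0.23.

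The T cell receptor complex was read at similar levels in both lines. Of 37 genes of the complex and its proximal signalling, 2 were lower (5.41% against 6.68% of all genes). Another 1 was higher (2.70% against 4.34%), and the median was -0.10. CD3D read 26586 and 28206 (log2 0.09), the kinase gene LCK 22018 and 22251 (log2 0.02) and the receptor beta chain gene TRBC1 25159 and 22785 (log2 -0.14). The adhesion receptor gene CD2 was lower, at 1976 and 500.3 (log2 -1.95), as was THEMIS, a signalling adaptor of thymocyte selection, at 5785 and 2762 (log2 -1.06). CD8A, at 41.7 and 100.3 (log2 1.04), was dim.

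Among oxygen-responsive genes, every member past 2-fold was lower. Of 20 measured hypoxia-responsive genes, 7 were at least 2-fold lower, against 6.68% of all genes, 17 had differences below 0 and the median was -0.61. Without probe sets that may read several transcripts, 13 members were measured and 4 were lower. P4HA1, a collagen prolyl hydroxylase, read 4272 and 1209 with solvent, then 1808 and 1238 with stimulation (log2 -1.81 and -0.54). The control line with solvent stood above the other 3 arrays. BNIP3, a mitochondrial protein of mitophagy, read 6975 and 2686 (probe sets at -1.37 and -1.89), and its relative BNIP3L read 9542 and 4147 (probe sets at -1.20 and -1.11). PDK1, the pyruvate dehydrogenase kinase, read 3820 and 941 (log2 -2.01), with dimmer probe sets at -0.92 and 0.60.

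MIR210HG, the host transcript of the hypoxia-induced microRNA miR-210, was outside that list. Its first probe set read 268 in the control line with solvent and 39.4 in shIKKE cells, and 6.58 and 15.8 with stimulation, so that 1 of 4 arrays was high. Its second probe set gave -1.19 with solvent. NDRG1, a stress-induced gene, read 1743 and 718 (log2 -1.26), and PPFIA4 165 and 25.7 (log2 -2.17). HIF1A, which encodes the oxygen-regulated factor itself, read 7017 and 8276 (log2 0.24).

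Glycolysis genes had 5 of 23 members lower, against 6.68% of all genes, none higher and a median of -0.23. The 5 were isoform, transporter and regulator genes: ALDOC (-2.31), PDK1, PFKFB4 (-1.47), ENO2 (-1.42) and the glucose transporter gene SLC2A3 (-1.20, with 3 probe sets from -1.31 to -0.87). ALDOC, an aldolase isoform, read 1500 and 291. The main enzymes of the pathway were within 2-fold, with LDHA at 27581 and 27131 (log2 -0.02) and GAPDH at 26025 and 31605 (log2 0.28).

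Genes of ribosome production had higher signals in the shIKKE line with solvent, 21 of them by less than 2-fold. All 31 measured members had a difference above 0, against 46.3% of all genes, 10 were at least 2-fold higher against 4.34%, none was lower, and the median was 0.82. UTP20, a scaffold of the small subunit processome, read 851 in control cells and 3178 in shIKKE cells with solvent (log2 1.88). The values were 3625 and 3680 with stimulation (log2 0.02). The control line with solvent was the low array of the 4. POLR1A, the largest subunit of RNA polymerase I, read 179 and 679 (log2 1.84, with 3 probe sets from 0.51 to 1.84).

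Other members of the processing machinery gave readings of the same sign. MYBBP1A, a nucleolar MYB-binding protein, read 451 and 1340, with probe sets at 1.54 and 1.0. NOP16, a nucleolar protein, read 1656 and 4281 (1.36 and 1.21), and TAF1D, a polymerase I initiation factor, 725 and 1944 (log2 1.41). RRP12 was at 1.85 by its representative and at 0.23, 0.40 and -0.15 by 3 dimmer probe sets. The abundant nucleolar genes DDX21 (10931 and 20501, log2 0.91), NCL (0.44) and NPM1 (0.31) had smaller differences. By probe sets, 57 of the 60 that read this list lay above 0.

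With stimulation, none of the 31 genes was past 2-fold between the lines and their median was -0.03. On the solvent arrays the median signal of the list was 1477 for control and 3077 for shIKKE cells, and on the stimulated arrays it was 3149 and 3091. The solvent array of the control line was thus the low one of 4 for the list as well. Beyond the list, MRM1, a mitochondrial ribosomal RNA methyltransferase (126 and 431, log2 1.67), the nucleolar gene CCDC86 (1135 and 3535, log2 1.63) and the mitochondrial ribosome gene MRPL1 (1862 and 5398, log2 1.53) were among the 10 highest genes with 1 bright probe set. Of 15 aminoacyl-tRNA synthetases 1 was higher (6.67% against 4.34% of all genes) and none was lower. The higher member was VARS1 (1.03, by 1 probe set), and the list's median was 0.28.

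**Figure D3:**
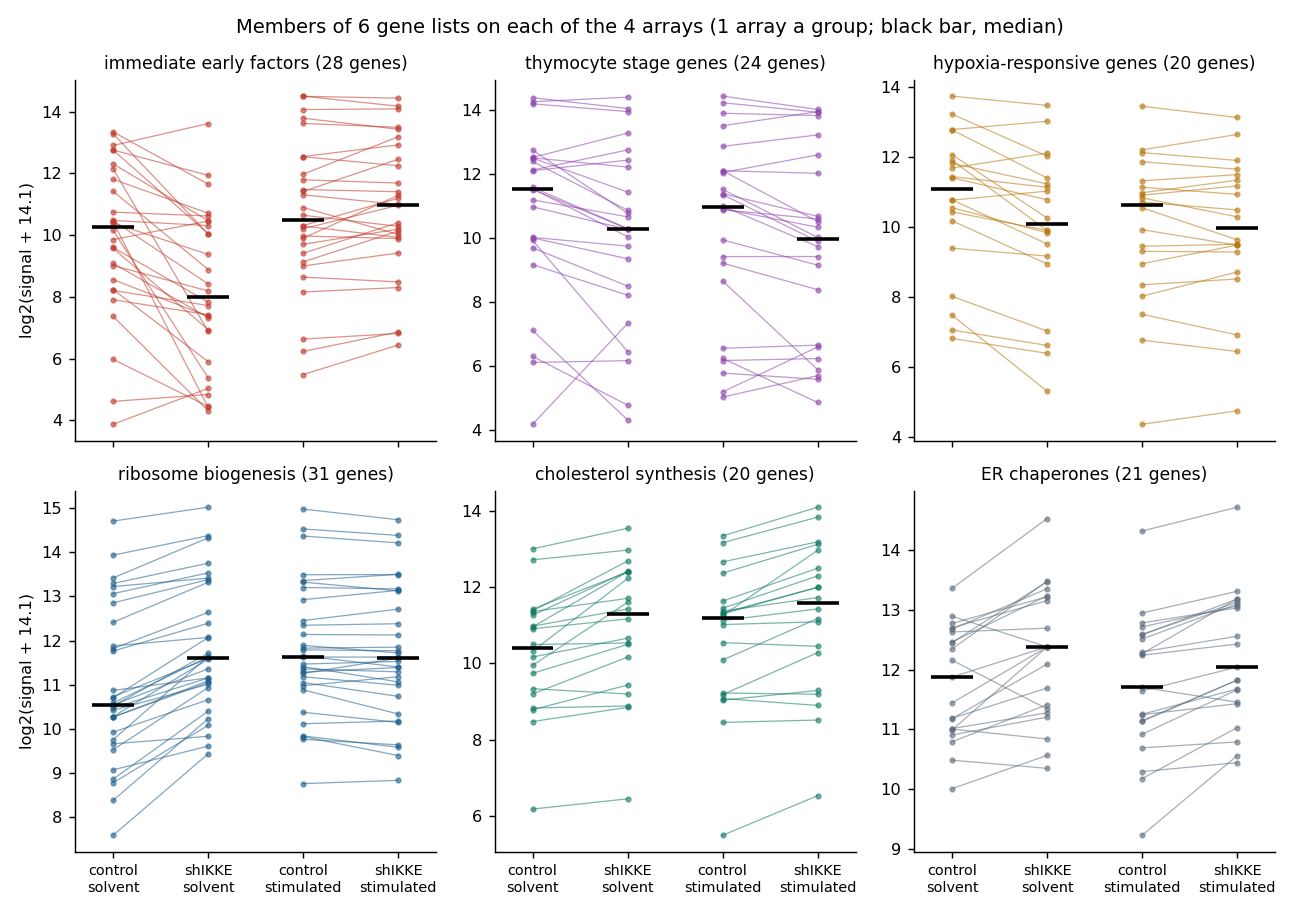
log2(signal + 14.1) of each measured member of 6 gene lists on the 4 arrays, with lines joining the same gene between the lines within a treatment and black bars at the median over members; there is 1 array a group and no error between samples. The median signal of the immediate early list was 1228 in control and 247 in shIKKE cells with solvent, and 1422 and 2010 with stimulation. Ribosome biogenesis medians were 1477 and 3077 with solvent and lay close with stimulation, at 3149 and 3091. The cholesterol synthesis median was higher in the shIKKE line in both, at 1348 and 2511, then 2325 and 3056.

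Of 20 measured sterol synthesis genes, 5 were higher by 2-fold or more in shIKKE cells with solvent, against 4.34% of all genes, none was lower, 19 had a difference above 0 and the median was 0.52. HMGCS1, an early enzyme of the pathway, read 973 and 3098 with solvent, with its probe sets at 1.66 and 1.72, and 2432 and 7964 with stimulation (log2 1.71). Within each treatment the shIKKE line was the higher. SQLE, squalene epoxidase, read 1972 and 5386 (4 probe sets from 0.96 to 1.95), and MSMO1, which removes methyl groups from the sterol ring, read 2442 and 5443 (log2 1.15).

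LSS, which closes the sterol ring, read 1265 and 4774 (log2 1.90), with a dim second probe set at 0.32. IDI1, the isomerase of the isoprenoid unit, was at 1.31 and 1.24 by bright probe sets and at -0.22 and -0.028 by dimmer ones. The remaining members were within 2-fold by their brightest probe set, from ACAT2 (0.97) and DHCR7 (0.97, 1.38 by its other probe set) through STARD4 (0.76), NSDHL (0.65), FDPS (0.54), SC5D (0.49), PMVK (0.45), SREBF2 (0.37) and EBP (0.34). SREBF2, which encodes the factor that activates sterol genes, was past 2-fold by its other probe sets, both at 1.08, and EBP was at 0.52 by its second probe set and at 1.58 by a dim one. MVD (0.27), HSD17B7 (0.26), INSIG1 (0.25, 3 probe sets to 0.95), TM7SF2 (0.05), SCAP (0.04) and MVK (-0.14, 4 probe sets from -0.50 to 0.94) ended the order.

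Fatty acid genes had 2 of 18 members higher (11.1% against 4.34% of all genes), none lower and a median of -0.11. SCD, the desaturase that makes oleate, read 5598 and 14388 with solvent, then 5441 and 10644 with stimulation, and its 4 probe sets with solvent lay between 1.36 and 3.20. It had the largest median over probe sets among genes whose probe sets were all at least 2-fold higher. FASN, fatty acid synthase, read 312 and 813 (log2 1.34), with a dim probe set at -1.17. ELOVL5 (-0.05) and ACLY (0.30), an elongase and the citrate lyase, were within 2-fold.

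Of 10 measured sterol export genes, 2 were lower, against 6.68% of all genes, none was higher and 8 were within 2-fold, with a median of -0.46. ABCG1, a sterol exporter, read 2755 and 464 with solvent, then 454 and 342 with stimulation, and its 4 probe sets with solvent lay between -2.53 and -1.50. The control line with solvent was the high array of the 4. ABCA1, the exporter to apolipoprotein A-I, read 78.6 and 27.5 (log2 -1.16, -0.95 by its other probe set). NPC1 (-0.32), NPC2 (-0.61) and SOAT1 (0.09), of endosomal release and esterification, were within 2-fold.

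Chaperones of the endoplasmic reticulum had 4 of 21 members at least 2-fold higher, against 4.34% of all genes, and none lower. The other 17 were within 2-fold, 17 of the 21 had a difference above 0 and the median was 0.51. The count was 2 by the median over probe sets and 1 of 17 without probe sets that may read several transcripts. HSPA5, the main chaperone BiP, read 10521 and 23685, with probe sets at 1.17 and 1.18. SDF2L1, its cofactor, read 2022 and 5319 (log2 1.39), and the lectin chaperone gene CALR 5203 and 11420 (3 probe sets from 0.48 to 1.13). HSP90B1 was at 1.02, and at 0.32 by a second probe set. Of 53 probe sets of the list 45 lay above 0. EDEM1 (-0.82), HERPUD1 (-0.51), ATF6 (-0.17) and DNAJB9 (-0.14), named after their values were seen, were the 4 members below 0.

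Among 14 heat shock genes listed as cytosolic none was past 2-fold, 12 were above 0 and the median was 0.43. HSPD1, a member of the list though its product is a mitochondrial chaperone, read 30608 and 43867 (log2 0.52). Of 25 targets of the amino acid response factor ATF4, 3 were lower (12% against 6.68% of all genes), none was higher and the median was -0.07. The 3 were VLDLR (-1.46), the cystathionine lyase gene CTH (-1.34) and the glutathione-degrading enzyme gene CHAC1 (-1.21). ATF4 itself read 17884 and 18191 (log2 0.02).

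MHC genes had a median of -0.62, with 3 of 19 lower, against 6.68% of all genes, and none higher. HLA-E read 2750 and 1060 (3 probe sets from -1.82 to -0.88), HLA-C 7879 and 4704 (log2 -0.74) and HLA-B 5512 and 3160 (log2 -0.80). These class I genes share sequence, so the split between them is uncertain. HLA-DRB1 and HLA-DPB1, of class II, were past 2-fold from signals of 45.5 and 36.9 in the control line, below the threshold. B2M, the common light chain of class I, read 26951 and 29255 (log2 0.12).

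Interferon-stimulated genes had 5 of 38 members lower, against 6.68% of all genes, none higher and a median of -0.23. IFIT3 read 520.1 and 193 (log2 -1.37, -0.46 by its other probe set), ISG20 469 and 191 (probe sets at -1.24 and -1.01) and the immunoproteasome gene PSMB9 2802 and 1266 (log2 -1.14). MX2 (-1.37) and IFI27 (-1.05) were dimmer. ISG15 (0.40), PSMB8 (0.04) and IFI6 (-0.62) were within 2-fold.

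Regulators of cell death had 6 of 27 members lower, against 6.68% of all genes, none higher and a median of -0.36. MCL1, the short-lived survival protein, read 9538 and 4707 (6 probe sets from -1.15 to -0.50), GADD45B 618 and 219 (4 probe sets from -2.19 to -0.84), and TP53INP1 365 and 81.4 (log2 -1.99). BMF (-1.30) was dim, and BNIP3 and BNIP3L are counted among the 6. BTG1, an antiproliferative gene of resting lymphocytes outside the list, read 6343 and 1683, with 3 probe sets from -2.24 to -1.73.

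Genes of DNA replication and mitosis were seldom past 2-fold, against 11.0% of all genes either way. Of 36 DNA replication genes none was past 2-fold (median -0.20), with TYMS at 0.19 and RRM2 at -0.24. Of 35 mitotic genes, CDC25C (-1.46, 3 probe sets to -0.53) and KIF23 (-1.02) were lower, 28 lay below 0 and the median was -0.33. Of 21 G1 cyclins and inhibitors, CCND2 (64.3 and 293, log2 1.97, and -0.03 by a dim probe set) and E2F5 (1.08) were higher. CCND3 (-1.03, 0.49 by a dim probe set), CDKN1A (-1.17) and CDKN2A (-1.37) were lower. CDKN2A was dim, at 59.2 in control and 14.3 in shIKKE cells by 1 probe set, the latter below the threshold. Of the G1 list 9.52% was higher and 14.3% lower, against 4.34% and 6.68% of all genes.

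Cytokine and surface receptor genes were dim on the solvent arrays, and their counts went both ways. Over all genes 4.34% were higher and 6.68% lower. Among 25 cytokines and chemokines 3 were higher (12%) and 4 lower (16%), with a median control signal of 57.7. IL4, the helper T cell cytokine, read 343 and 100.1 (probe sets at -1.65 and -2.11), and the death ligand gene TNFSF10 643 and 244 (log2 -1.35). CCL1 (12 and 96.0) and OSM (9.90 and 69.6) started from signals below the threshold. Of 25 costimulatory and activation receptors 3 were higher (12%) and 5 lower (20%). TNFRSF8, or CD30, was at 276 and 889.9 (log2 1.64). CD48 was at 4253 and 1522 (log2 -1.47, 0.18 by a dim probe set) and ICOS at 174 and 46.4 (log2 -1.64).

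Of 33 cytokine receptors, JAKs and STATs, 3 were lower (9.09% against 6.68% of all genes) and 1 higher (3.03% against 4.34%), with a median of -0.34. IL10RB read 1594 and 569 (log2 -1.46) and the interferon receptor gene IFNAR2 3287 and 1570 (3 probe sets from -1.06 to -0.70). Of 18 chemokine receptor and migration genes, 4 were higher (22.2% against 4.34%) and 3 lower (16.7% against 6.68%). CX3CR1, the fractalkine receptor, read 74.6 and 309 with solvent, then 93.7 and 424 with stimulation, and CXCR5 78.9 and 8.33, then 85.3 and 15.3. For CX3CR1 both shIKKE arrays lay above both control arrays, and for CXCR5 both lay below.

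RAP1GAP2, which encodes an inhibitor of the adhesion GTPase Rap1, was the highest gene with 1 bright probe set. It read 68.6 in control cells and 583 in shIKKE cells with solvent (log2 2.85). It read 51.4 and 488 with stimulation (log2 2.94). RASGRP2, an exchange factor that activates Rap1, read 577 and 1625, with 4 probe sets from 1.47 to 2.21. SGK1, a kinase downstream of PI3K, read 1533 and 296 (log2 -2.32), and BMP4, a TGF-beta family ligand, 724 and 126 (log2 -2.39). ID2, an inhibitor of E proteins, read 2798 and 1354, with probe sets at -1.04 and -2.28.

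Genes whose probe sets all passed 2-fold are those read more than once. Of 6798 genes with at least 2 probe sets past the filter, all were higher for 31 (0.456%) and all lower for 60 (0.883%). Besides genes given above, the 15 highest by median held SH3BP5, a binding partner of the kinase BTK (2985 and 6828), ZNF37A (525 and 1322), CYB5D1 (599.7 and 1446) and the probe sets annotated to the microRNA gene MIR142 (496 and 1140). HOXD13, LINC02987, NEK11, CAPN3, CXCR3, ZBTB38, ESR1 and NRP2 were also among them, with control signals from 5.59 to 119. A low control signal makes such a difference less certain, as the probe set gaps of dim genes show.

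The 15 lowest held, besides genes given above, FXYD2, a subunit of the sodium pump, at 4790 and 1183 (probe sets at -2.02 and -2.0) and DDAH2 at 1632 and 469.7 (3 probe sets from -1.77 to -1.10). CHFR, a mitotic checkpoint ubiquitin ligase, read 209.7 and 48.0, PPP1R1C 858 and 264, and ZC3H6 781 and 169. Among genes with 1 bright probe set, the lowest also held the protease gene LGMN (1426 and 177, log2 -2.91), RDM1 (-2.69), TMEM63B (-2.70) and the cholinesterase gene BCHE (2323 and 414, log2 -2.45). The highest held ANKRD36B (251 and 1467, log2 2.48), which has near-identical copies and is uncertain, PI16 (1.79) and DNAJB6 (1.54).

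**Figure D4:**
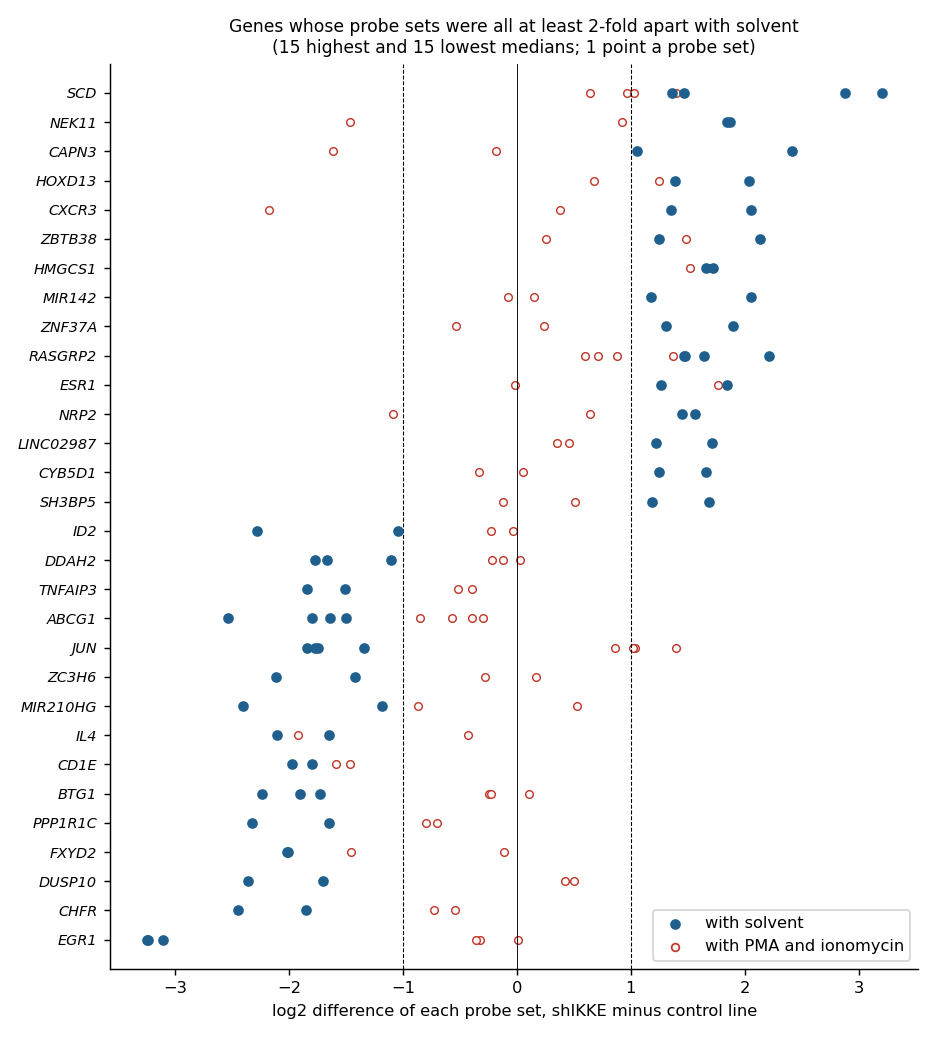
Log2 difference of every probe set past the filter, shIKKE minus control line, for the 15 genes with the highest and the 15 with the lowest median among those whose probe sets were all at least 2-fold apart with solvent; filled points are the solvent pair, open points the stimulated pair and dashed lines mark 2-fold. The filled points were chosen to lie past the lines, and with stimulation the 4 JUN probe sets lie above 0 while both CD1E probe sets lie below -1.

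Several lists had no member or few members past 2-fold, against 11.0% of all genes either way. Of 27 respiratory chain genes, 28 redox genes, 15 NFAT and calcineurin genes, 13 histone genes and 13 housekeeping genes none was past 2-fold, and their medians lay between -0.07 and 0.16. Calcineurin and NFAT regulators included DYRK1A (0.03, 1.39 by a dim second probe set), CHP1 (0.28) and PPP3R1 (-0.16). Of 12 RNA interference genes, AGO4 (1840 and 769, 3 probe sets from -1.24 to -0.83) was lower and DICER1 (-0.14) and DROSHA (-0.09) were within 2-fold. TAL1 circuit genes had 1 of 16 higher (LMO2, 10.8 and 46.0) and a median of 0.20, with MYB at 0.55 and GATA3 at 0.33.

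Further lists are set against 4.34% higher and 6.68% lower over all genes. The PI3K list had 1 of 25 higher (4%), RPTOR (1.52), and 4 lower (16%), SGK1, GAB2 (-1.03), PIK3IP1 (-1.12) and PDK1. PDK1 encodes the pyruvate dehydrogenase kinase described among oxygen-responsive genes, not a kinase of the PI3K pathway, and without it 3 were lower. TGF-beta signalling had 2 of 23 higher and 2 lower (8.70% each way), and Wnt signalling 1 of 19 lower, WNT5B (-1.31, below the threshold on both solvent arrays). Calcium entry and pumps had 1 of 17 higher, S100A4 (1906 and 4167, log2 1.12), and lysosomal genes 1 of 21 lower, LGMN. Integrins and adhesion had 2 of 31 higher and 2 lower, and RAP1GAP2 and CD2 are among these.

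As a check of the T cell label, 13 of 13 T cell markers passed the filter, with summed signals of 79364 and 78861 on the solvent arrays, 1 member lower (CD2) and a median of 0.02. Markers of other cells were dim. Of 12 B cell markers 7 passed the filter, with summed signals of 954 and 920 and no member past 2-fold, and MS4A1 and PAX5 are not among the 7. Of 13 myeloid markers 5 passed, with summed signals of 291 and 355, and CD14, LYZ and SPI1 are not among them. MPO and CSF1R were at -2.21 and -1.0 and FCN1 at 1.78, each at most 62.2 on both arrays. Of 12 natural killer and cytotoxic markers 5 passed (summed 898 and 1040), and of 14 erythroid, epithelial and fibroblast markers 5 (500 and 572), with none past 2-fold.

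Where probe sets of a gene were bright and disagreed, the difference of the gene is not settled. The 4 genes PAPOLA, TRABD, SENP6 and ZNF394 had bright probe sets past 2-fold in opposite directions. PAPOLA, a poly(A) polymerase, had 6 probe sets from -1.59 to 1.15, of which 3 were at least 2-fold lower. SENP6 ranged from -1.08 to 1.05, TRABD from -1.02 to 1.24 and ZNF394 from -1.07 to 1.04. Probe sets of a gene can read different transcript ends or isoforms, and which of these applies was not tested.

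The stimulated pair compares the same lines on arrays that are not in the solvent pair. There 1147 genes (8.36%) were past 2-fold, 822 (5.99%) with higher and 325 (2.37%) with lower signals in shIKKE cells. Of the 596 genes higher with solvent, 103 were also higher with stimulation, which is 17.3% of the former and 12.5% of the latter, and 26 were at least 2-fold lower. Of the 916 lower with solvent, 84 were also lower with stimulation (9.17% and 25.8%), 102 were higher and 730 were within 2-fold. Among genes whose probe sets all passed, 2 of the 31 higher and 6 of the 60 lower were past 2-fold the same way by their representative. Whether a difference between the lines changed with treatment was not tested, since each is a single value.

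By list, the groups separated on the stimulated pair. The median of the immediate early list went from -1.61 with solvent to 0.08 with stimulation, with 3 of 28 then higher and none lower. That of ribosome biogenesis went from 0.82 to -0.03 and that of hypoxia-responsive genes from -0.61 to -0.11, with none of 20 past 2-fold. The cholesterol list had medians above 0 in both treatments, 0.52 and 0.67, with 4 members higher with stimulation. The thymocyte list had medians of -0.68 and -0.29, with 6 members lower with stimulation. CD1E was at -1.59 with stimulation, CD38 at -1.38 and CR2 at -2.77.

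**Figure D5:**
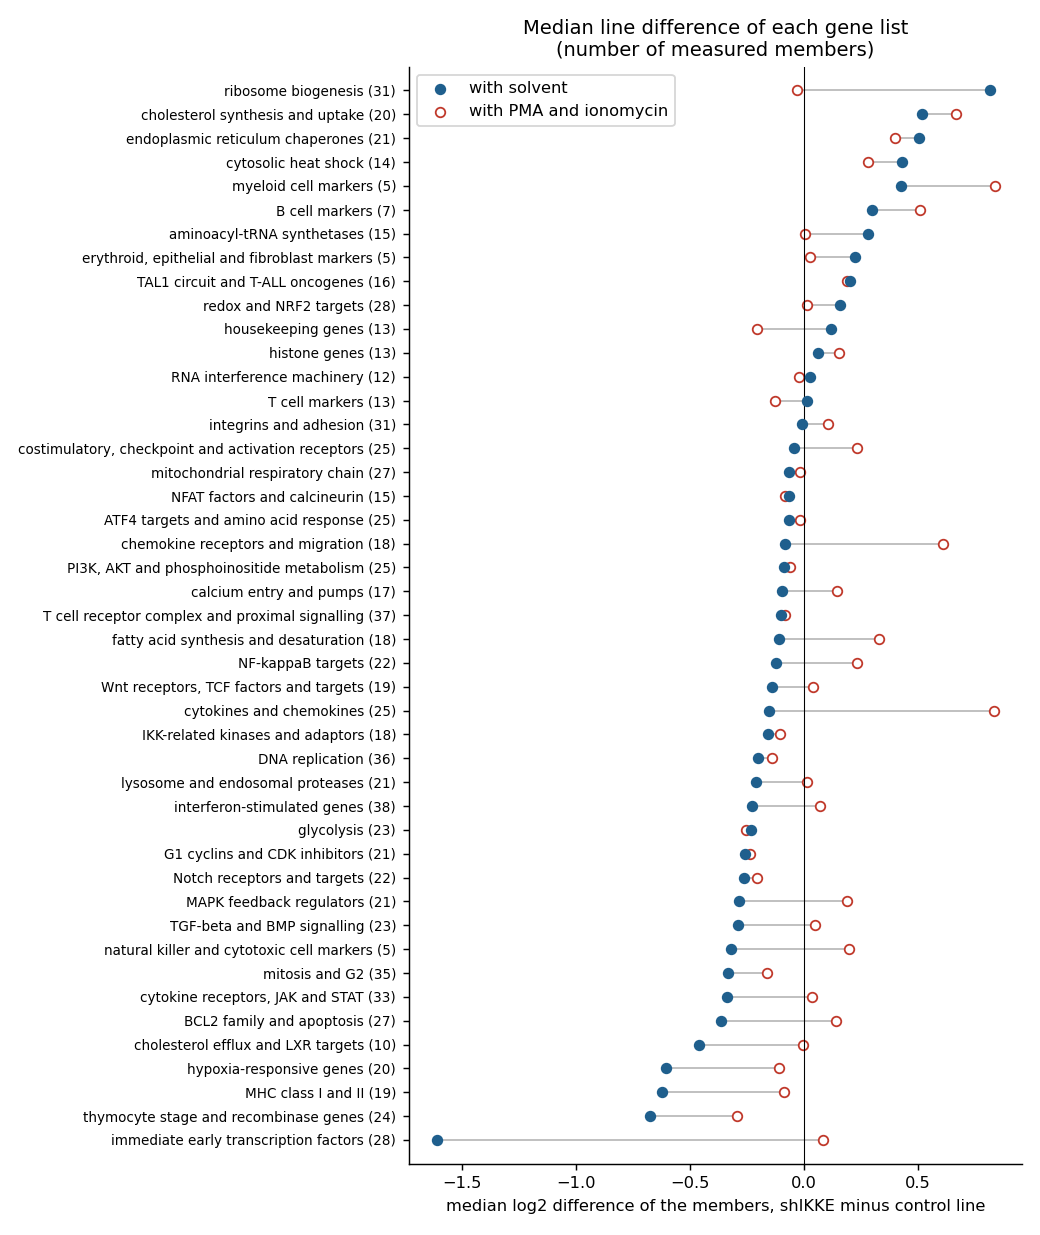
Median log2 difference of the measured members of each of 45 gene lists, shIKKE minus control line, with solvent (filled) and with PMA and ionomycin (open); numbers of members are in brackets. With solvent the medians run from -1.61 for immediate early factors to 0.82 for ribosome biogenesis, and with stimulation these lists lie at 0.08 and -0.03.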

How the data were processed

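RNA of 4 Jurkat samples, 1 array per group, was prepared by Qiagen RNeasy and labelled with biotin from 6 ug of total RNA, per the labels' protocols. The deposited values are MAS5 signals, a linear intensity per probe set, per the submitters' processing notes; its version and scaling target are not given here. The trimmed means were the same on all arrays, as after scaling. MAS5 subtracts mismatch signal, which spreads dim readings. The table had 0 columns left out.

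Gene symbols came from the platform annotation: 41091 probe sets had 1 symbol, 1801 several and 11721 none, and 62 were array controls. Of the first, 41037 matched the RefSeq table of GRCh38.p14, which replaced 0 symbols. The pseudocount of 14.1 is the 25th percentile of all signals. A gene past the filter was counted at 2-fold or more. No p-value was computed, because there is 1 array per group, and the labels do not say whether cultures were separate. Correlations between probe sets run over genes and carry no p.

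The members, the 46 lists, the naming rule and the alternatives were chosen with earlier results of these data known; 1 list is not reported here. Named were the 15 highest and 15 lowest genes whose 2 or more probe sets were all past 2-fold, the 10 highest and 10 lowest with 1 probe set and a solvent signal of at least 225.7, IKBKE and TBK1, all measured sterol genes, the EGR, FOS and NR4A families and up to 5 bright genes with opposed probe sets. Each list gave up to 6 members with the largest differences past 2-fold and 3 bright ones within it, and other genes were named after their values were seen. Motifs were searched on both strands of RefSeq windows of 300 bases.

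The 10 alternatives covered the pseudocount, the filter, the choice of probe set and the scaling, with cyclic loess from limma 3.58.1 in R 4.3.3. The calculations were tested on simulated data and used Python 3.11.15, pandas 2.3.3, numpy 2.4.6 and matplotlib 3.10.9.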

Additional observations from a re-analysis of the deposited data

Results flagged for a closer look

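For 8 named genes the solvent pair and the stimulated pair differed at least 2-fold between the lines in opposite directions, with 1 array per group, and this change of direction was not tested. They are EGR3 (log2 -5.26 with solvent, 1.21 with stimulation), NR4A3 (-3.06 and 1.39), JUN (-1.84 and 1.04), ICOS (-1.64 and 1.93), LTA (-1.22 and 1.22), CHAC1 (-1.21 and 1.43), WNT5B (-1.31 and 1.24) and CSF1R (-1.0 and 2.41). JUN was read by 4 probe sets, all below 0 with solvent, and the representative of NR4A3 read 5.82 in the shIKKE line with solvent. WNT5B and CSF1R were below the threshold of 56.4 on both solvent arrays.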

How the results depend on the processing

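No paired analysis was possible because each group has 1 array. Under 10 alternatives, of 159 named genes past 2-fold with solvent 97 were past it the same way under every alternative that gave a value, 62 fell within it under at least 1 and 5 reversed, and 7 of 150 named within 2-fold passed it in at least 1. The counts of 596 higher and 916 lower genes became 215 and 421 with the median as pseudocount, 1235 and 1458 with no filter, 297 and 555 with the mean of the solvent arrays at or above the median, and 166 and 338 at or above 4 times it, where list members past 2-fold numbered 97 against 147. Genes with all probe sets past 2-fold numbered 153 with no pseudocount and 46 with the larger one, against 91. Taking the median over probe sets, 2 endoplasmic reticulum chaperones were higher instead of 4. Without probe sets that may read several transcripts (_x_at and _s_at), 1 was, 4 hypoxia-responsive genes were lower instead of 7 and 5 thymocyte genes instead of 10. The reversed values were RGS16 at -0.62 with no pseudocount, TRABD at 0.27 with the median of probe sets, and IDI1 at -0.028, IL16 at 0.54 and TNFRSF4 at -0.22 without those probe sets. The causes were not tested. Higher genes made up 39.4% of all past 2-fold, and 48.9% (733 higher, 765 lower) with arrays centred on the median. Signal level limits the reading of dim genes, whose probe sets scatter most.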

Other observations

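Long non-coding RNA genes were read at low signals. Of 1018 past the filter, with a median signal of 65.8, 83 were at least 2-fold higher and 126 lower in the shIKKE line with solvent (20.5% either way), against 494 and 769 of 12396 protein-coding genes (10.2%) with a median signal of 742. Of 6516 probe sets past the filter without exactly 1 gene symbol, 487 were at least 2-fold higher and 487 lower, and of 26218 probe sets with 1 symbol 1380 were higher and 1677 lower. None of these unnamed probe sets was used for a gene.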
